A study of Mus musculus with 2 samples.

Results

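Extracellular ATP is a danger signal that damaged tissue releases, and extracellular adenosine is the suppressive product made from it. On a regulatory T (Treg) cell, ATP is sensed by P2X receptor channels, of which P2X7 can trigger shedding of surface proteins and cell death. The surface enzyme CD39 cuts ATP and ADP to AMP, and CD73 cuts AMP to adenosine, a pair long known as a suppressive tool of Treg cells. Adenosine then acts through the A2A receptor, or is taken up by nucleoside transporters and removed by adenosine deaminase or adenosine kinase.

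The genes described here are 9 named members of that pathway: Nt5e (CD73), Entpd1 (CD39), Adora2a, Ada, Adk, P2rx7, P2rx4, Dpp4 and Slc29a1. They were chosen by symbol, and all 9 were found among the 23337 gene symbols of the count table. The study profiled Treg cells of injured skeletal muscle by RNA sequencing, with 1 library for each of 2 treatments. Both groups were 8-week-old male C57BL/6 mice with the Foxp3-IRES-GFP reporter, which marks Foxp3-expressing cells with a green fluorescent protein. In both, the tibialis anterior, quadriceps and gastrocnemius were injured with the venom toxin cardiotoxin, which destroys fibres, and 5000 Treg cells were sorted 4 days later. The IL-33 group also received 0.3 ug of recombinant IL-33, a cytokine released by damaged tissue, into the muscle, and the PBS group received PBS in its place. How many mice each library holds is not given in the sources used here. With 1 library per group there is no replicate spread and no test, so "higher" and "lower" compare these libraries and not the treatments, and "with IL-33" and "with PBS" name the libraries.

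The IL-33 library held 4080791 counts and the PBS library 1573707, a ratio of 2.59, so the PBS values are the less precise. Levels are CPM, the count divided by the library's total and scaled to a fixed size, and each interval is an exact 95% interval that covers counting error only. Treg and T cell markers were plentiful in both, at a summed 10956 CPM with IL-33 and 11203 CPM with PBS over 8 genes, led by Ctla4 and Ikzf2. Foxp3 itself was thinly counted, with 40 counts (9.8 CPM) with IL-33 and 1 count (0.635 CPM) with PBS. It was past 2-fold higher with IL-33, at a ratio of 15.4 (2.61 to 624) that rests on that 1 count. The muscle list gave 1 count and 4 counts over 9 genes, the neutrophil and mast cell list 18 and 9 counts over 6 genes. The monocyte and macrophage list summed to 54.2 CPM with IL-33 and 73.7 CPM with PBS over 13 genes, with Csf1r at 1 count in each, and Cd68 and Fcgr1 at 0. Lyz2 (19.1 against 38.8 CPM) and Ms4a7 (0 counts against 25) were lower with IL-33, and Itgam (16.2 against 7.63 CPM) and Mrc1 (17 counts against 0) were higher. The dendritic cell list was at 26.0 CPM with IL-33, where Xcr1 was highest (10.3 CPM), and at 82.6 CPM with PBS, where H2-Aa was (61.6 CPM). H2-Aa (18 counts against 97) and Itgax (0 against 19) were lower with IL-33, Siglech (28 against 2) and Zbtb46 (18 against 0) were higher, and Flt3, Clec9a, Cd209a and Cd74 were at 0. B cell genes were at 32.3 and 26.7 CPM, nearly all of it Cd79b, and Pax5 was at 0. The CD8 T and NK list was carried by Gzmb (2052 and 1779 CPM). Of its defining genes, Cd8b1 was at 21.6 CPM with IL-33 and 13.3 CPM with PBS, and Cd8a, Ncr1 and Klrb1c were at 0. Among naive T cell genes, Ccr7 was lower with IL-33 (30.6 against 89.0 CPM), as were the thinly counted Tcf7 (5 counts against 11) and Igfbp4 (1 against 11). Lef1 was at 51.2 and 33 CPM and Satb1 at 121 and 123 CPM. Endothelial genes were at 49.3 and 52.1 CPM, nearly all of it Pecam1. Fibroblast genes other than Thy1, which T cells also express, gave 0 counts with IL-33 and 104 counts (66.1 CPM) with PBS. These were Col3a1 (78 counts), Dcn (24) and Pdgfra (2), while Col1a1, Col1a2 and Lum were at 0 in both libraries. The part of these marker genes in the values below was not tested. In such bulk samples, fewer cells of a type and less RNA per cell cannot be told apart.

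Of the 9 genes, 8 reached 5 CPM in at least 1 library, the level at which genes were compared. Adk and P2rx7 were 2-fold or more higher with IL-33, 0 were 2-fold or more lower, and the other 6 were within 2-fold. Over all 9005 genes compared, 15.5% were 2-fold or more higher and 16.3% were 2-fold or more lower, and beside that background a count of 2 of 8 sets these genes apart in neither direction. These calls use the log2 fold of CPM plus 1, a scale that understates the differences of low genes. The median log2 fold was 0.33 over the 8 genes and -0.08 over all genes compared.

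Counting error alone is a lenient yardstick here. The counting interval of the ratio lay above 1 for 4 of the 8 genes (Adk, P2rx7, P2rx4 and Dpp4) and below 1 for 2 (Nt5e and Slc29a1). Over all genes compared it lay above 1 for 28.6% and below 1 for 35.1%. The libraries therefore differ across the table by more than counting error, and an interval that leaves out 1 does not set a gene apart.

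**Figure D1:**
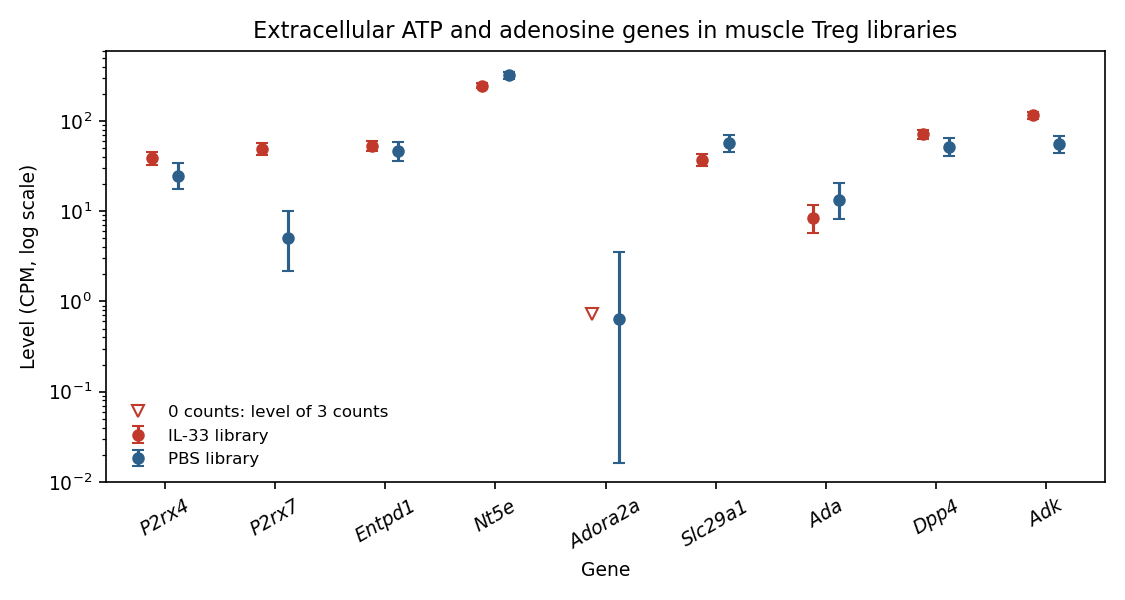
Level of each gene in CPM (log axis) in the IL-33 (red) and PBS (blue) libraries; points are single libraries, bars are exact 95% counting intervals, and the open triangle is the level of 3 counts for a gene at 0. P2rx7 stands at 49.0 CPM against 5.08 CPM, and Adora2a is at or near 0 in both libraries.

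The ATP receptors are described first, and the promoter windows of both are printed because the genes are neighbours on the same strand that differed unequally between the libraries. P2rx7 lies on chromosome 5 (GRCm38, 122643911 to 122691432, plus strand) and P2rx4 on the same chromosome (122707544 to 122729738, plus strand), 16.1 kb after it. Each sequence below is a RefSeq window before the gene's start (build GRCm38.p6), 5′ to 3′, limited to bases in no annotated exon. RefSeq held 2 window entries for P2rx7 and 1 for P2rx4. Only the first listed entry of each gene was searched, so the matches of P2rx7 describe that entry alone. Capitals mark matches to any of 6 motifs searched on both strands. These were the TATA box (TATAAA), the cyclic AMP response element (TGACGTCA), AP-1 (TGANTCA), STAT (TTCNNNGAA), ETS (CAGGAAG) and the GC box (GGGCGG).
P2rx7, chr5:122643677-122643910: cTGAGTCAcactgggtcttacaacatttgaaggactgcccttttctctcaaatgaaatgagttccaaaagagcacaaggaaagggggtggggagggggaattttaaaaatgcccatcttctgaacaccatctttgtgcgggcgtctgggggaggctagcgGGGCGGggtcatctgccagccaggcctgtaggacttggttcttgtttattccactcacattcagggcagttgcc
P2rx4, chr5:122707294-122707543: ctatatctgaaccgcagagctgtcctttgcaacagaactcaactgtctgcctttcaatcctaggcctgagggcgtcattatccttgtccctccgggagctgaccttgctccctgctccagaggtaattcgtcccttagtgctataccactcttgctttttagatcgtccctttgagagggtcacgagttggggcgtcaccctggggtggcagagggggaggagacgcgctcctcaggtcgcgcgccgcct
The P2rx7 window of 234 bases holds 1 AP-1 match, whose first base lies 233 bases before the annotated start, and 1 GC box match, 74 bases before it. Among 27025 genes' windows of that length, 6.47% hold an AP-1 match and 32.5% a GC box match. The P2rx4 window of 250 bases holds 0 matches to the 6 motifs. A match describes letters only and was not tied to any factor here, and no match overlapped one of another motif.

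P2rx7, which encodes the high-threshold ATP channel, had 200 counts (49.0 CPM, 42.5 to 56.3) with IL-33 and 8 counts (5.08 CPM, 2.19 to 10) with PBS. At the IL-33 library's level, the PBS total would have given 77.1 counts. The ratio was 9.64 (4.80 to 22.6), the largest of the 8 genes, with a log2 fold of 3.04. Of the 3511 genes whose mean level lay between 10 and 50 CPM, the range that holds P2rx7, 15.8% were 2-fold or more higher and 2.39% were 8-fold or more higher. The 8-fold mark was chosen after the values were seen, and it places P2rx7 among 84 genes of its range. The PBS value rests on 8 counts. Macrophages carry P2X7 as well, and the summed monocyte and macrophage genes were lower with IL-33 (54.2 against 73.7 CPM), with members going both ways, as given above; their part in the P2rx7 value was not tested.

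P2rx4, which encodes a more ATP-sensitive channel of the same family, had 157 counts (38.5 CPM, 32.7 to 45.0) with IL-33 and 39 counts (24.8 CPM, 17.6 to 33.9) with PBS. Its ratio was 1.55 (1.09 to 2.27), within 2-fold. The balance of the 2 receptors, which no library scaling can alter, went from 1.27 P2rx7 counts per P2rx4 count with IL-33 to 0.205 with PBS. That is a 6.21-fold difference (2.75 to 15.8). The remaining P2X genes P2rx1, P2rx2, P2rx3, P2rx5 and P2rx6 had 0 counts in both libraries. By counting error alone, this allows up to 0.735 CPM with IL-33 and 1.91 CPM with PBS (3 counts).

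Entpd1 and Nt5e, the pair that turns ATP into adenosine at the surface, were both within 2-fold. Entpd1, which encodes CD39, lies on chromosome 19 (40612366 to 40741602, plus strand). It had 216 counts (52.9 CPM, 46.1 to 60.5) with IL-33 and 73 counts (46.4 CPM, 36.4 to 58.3) with PBS. The ratio was 1.14 (0.871 to 1.51), and the intervals of the levels overlap.

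Nt5e, which encodes CD73, is on chromosome 9 (88327197 to 88372092, plus strand) and was the best counted of the 9 genes. It had 1008 counts (247 CPM, 232 to 263) with IL-33 and 507 counts (322 CPM, 295 to 351) with PBS. The level was lower with IL-33, at a ratio of 0.767 (0.688 to 0.855) and well inside 2-fold. Fibroblasts can carry CD73. Col3a1 and Dcn were counted in the PBS library and not in the IL-33 library, while Col1a1, Col1a2 and Lum had 0 counts in both. The part of fibroblasts in the Nt5e value was not tested. Entpd1 counts per Nt5e count were 0.214 with IL-33 and 0.144 with PBS, a 1.49-fold difference (1.11 to 2.01).

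**Figure D2:**
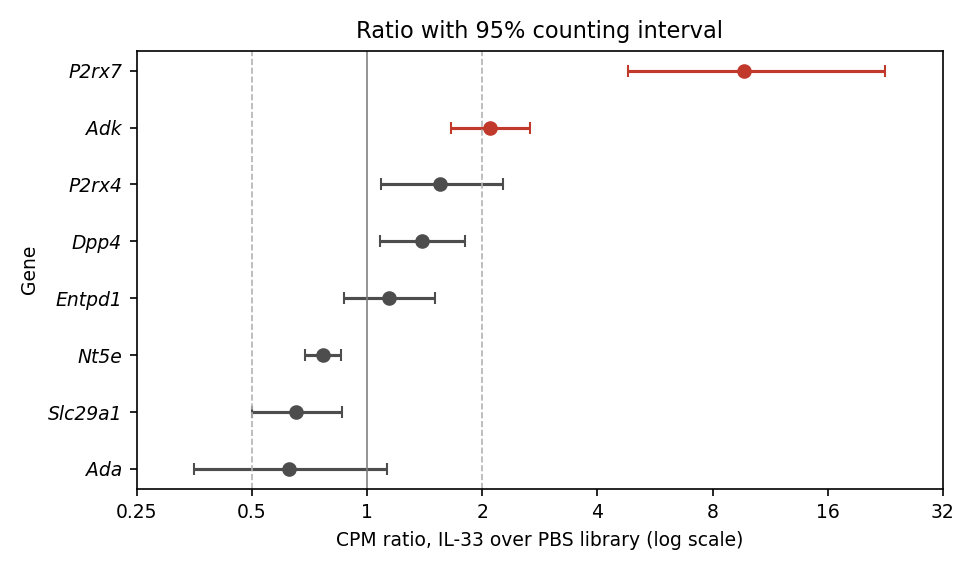
CPM ratio of the IL-33 over the PBS library for the 8 genes that reached 5 CPM (log axis); points are ratios of single libraries, bars are exact 95% counting intervals, and dashed lines mark 2-fold. P2rx7 (9.64) and Adk (2.10), in red, lie past 2-fold, and the intervals of Entpd1 and Ada hold 1.

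Adora2a, the gene of the A2A receptor (chromosome 10, 75316877 to 75334784, plus strand), was barely seen. It had 0 counts with IL-33, which by counting error alone allows up to 0.735 CPM, and 1 count (0.635 CPM, 0.0161 to 3.54) with PBS. Foxp3, the gene the reporter marks, also had 1 count with PBS, so a count near 0 does not by itself show an absent transcript. No fold is given for Adora2a, since both values are under the level of 3 counts. The other adenosine receptor genes Adora1, Adora2b and Adora3 had 0 counts in both libraries. The 4 receptor genes together thus took 1 of 5654498 counts, so adenosine receptor transcripts were not detectable at this depth beyond that single count. Genes of the cyclic AMP pathway that A2A uses were present, as given further on.

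Adenosine uptake and removal gave the second gene past 2-fold. Adk encodes adenosine kinase, which returns adenosine to AMP inside the cell, and lies on chromosome 14 (21052574 to 21448569, plus strand). It had 473 counts (116 CPM, 106 to 127) with IL-33 and 87 counts (55.3 CPM, 44.3 to 68.2) with PBS. The intervals of the 2 levels do not overlap, and the ratio was 2.10 (1.66 to 2.67), with a log2 fold of 1.05 that lies just past the 2-fold mark. Of the 2576 genes whose mean level lay between 50 and 200 CPM, the range that holds Adk, 4.43% were 2-fold or more higher. The stretch before its start that lies in no annotated exon is short, and is printed because Adk was the other gene past 2-fold. RefSeq held 2 window entries for Adk, and only the first listed was searched.
Adk, chr14:21052509-21052573: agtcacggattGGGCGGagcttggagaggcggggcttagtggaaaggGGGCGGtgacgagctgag
It holds 2 GC box matches in 65 bases, and 20.1% of windows of that length hold at least 1. The stretch fills the gap between Adk and Ap3m1, a gene that starts 66 bp away on the opposite strand. Both matches thus lie before the starts of both genes. The capitals mark those matches, the build is again GRCm38.p6 on the plus strand, and no other of the 6 motifs was found in these letters.

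Ada encodes adenosine deaminase, which converts adenosine to inosine (chromosome 2, 163726584 to 163750239, minus strand). It was thinly counted, with 34 counts (8.33 CPM, 5.77 to 11.6) with IL-33 and 21 counts (13.3 CPM, 8.26 to 20.4) with PBS. The intervals overlap and the ratio of 0.624 (0.352 to 1.13) could not be told from 1 at this depth. Ada counts per Adk count were 0.0719 with IL-33 and 0.241 with PBS, a ratio of 0.298 (0.160 to 0.568). Between the 2 enzymes that remove adenosine, the kinase thus had more counts in both libraries, and by a larger factor with IL-33. Counts do not allow for transcript length. Per kilobase of the longest transcript, Adk stood at 27.3 CPM (24.9 to 29.9) and Ada at 4.94 (3.42 to 6.90) with IL-33. With PBS they stood at 13 (10.4 to 16.1) and 7.91 (4.89 to 12.1), and these intervals overlap. Nt5e counts per Ada count were 29.6 and 24.1, a 1.23-fold difference whose interval (0.670 to 2.2) holds 1.

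Slc29a1 encodes ENT1, the equilibrative transporter that lets adenosine cross the membrane (chromosome 17, 45585200 to 45599606, minus strand). It had 151 counts (37.0 CPM, 31.3 to 43.4) with IL-33 and 89 counts (56.6 CPM, 45.4 to 69.6) with PBS. Its ratio was 0.654 (0.5 to 0.860), so it stood lower with IL-33 while Adk stood higher. Slc29a1 counts per Adk count were 0.319 and 1.02, a ratio of 0.312 (0.217 to 0.449).

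Dpp4 encodes CD26, a surface peptidase that in humans also anchors adenosine deaminase (chromosome 2, 62330073 to 62412231, minus strand). It had 292 counts (71.6 CPM, 63.6 to 80.3) with IL-33 and 81 counts (51.5 CPM, 40.9 to 64.0) with PBS. The ratio was 1.39 (1.08 to 1.80), within 2-fold, and the intervals of the levels overlap narrowly. Antisense genes overlap exons of Dpp4 and of Slc29a1 in the GENCODE M21 annotation. Since the treatment of strand in counting is not given in the sources used here, any reads of these partners cannot be told apart from those of the named genes.

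**Figure D3:**
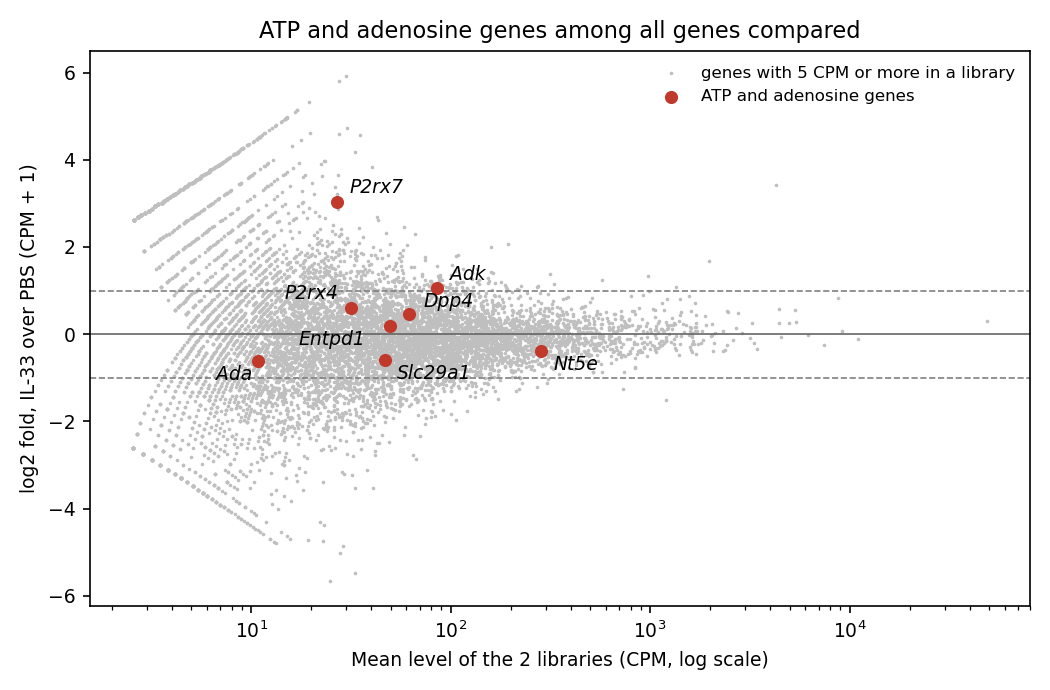
log2 fold of IL-33 over PBS (CPM plus 1) against the mean level of both libraries (CPM, log axis) for the 9005 genes compared (grey) and the 8 ATP and adenosine genes among them (red); dashed lines mark 2-fold. P2rx7, at 3.04, lies high in its range, Adk, at 1.05, lies just past the upper line, and the other 6 lie within the bulk of genes of like level.

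Levels were compared between genes per kilobase of the longest annotated transcript. In the IL-33 library Nt5e was highest at 61.8 CPM per kilobase (58.1 to 65.8), then Adk at 27.3 (24.9 to 29.9) and Slc29a1 at 16.7 (14.1 to 19.6). These 3 did not overlap. Below them, on the same scale, came Dpp4 at 13.6, Entpd1 at 12.5, P2rx7 at 9.93 and P2rx4 at 9.88, each overlapping the gene next to it, as Dpp4 also overlapped Slc29a1. Ada was lowest of the 8, at 4.94 CPM per kilobase (3.42 to 6.90), apart from P2rx4.

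In the PBS library Nt5e also led, at 80.6 CPM per kilobase (73.8 to 88.0), with Slc29a1 next at 25.5 (20.5 to 31.4). Adk (13), Entpd1 (11), Dpp4 (9.77), Ada (7.91) and P2rx4 (6.36 CPM per kilobase) each overlapped its neighbour in the order. P2rx7 was last of the 8 at 1.03 CPM per kilobase (0.445 to 2.03), apart from P2rx4. The order rests on the length used. By the median length of annotated transcripts, many of which are short fragments, Adk (185), Entpd1 (112) and Dpp4 (112) passed Nt5e (79.1 CPM per kilobase) with IL-33, while with PBS Nt5e (103) still led.

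Around these 9 genes, 10 lists of related genes held 101 genes of the table. Of these, 36 had 0 counts in both libraries and 53 reached 5 CPM. Of the 53, 8 (15.1%) were 2-fold or more higher with IL-33, 5 (9.43%) were lower and 40 were within 2-fold, against 15.5% and 16.3% over all genes compared. Their median log2 fold was -0.02, against -0.08 over all genes.

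Channels and carriers that release ATP had a median log2 fold of -0.48 over 5 genes, with 0 higher, 1 lower and 4 within 2-fold. Panx1, the pannexin channel gene, was at 78.4 CPM with IL-33 and 112 CPM with PBS, a ratio of 0.701 (0.582 to 0.848). Lrrc8c and Lrrc8d, subunits of volume-regulated anion channels, had ratios of 0.711 and 0.756. The 1 gene past 2-fold was Slc17a9, the vesicular nucleotide transporter, with 18 counts against 16, a ratio of 0.434 (0.209 to 0.909); it was named after its values were seen.

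Other nucleotide enzymes had a median of 0.81 over 7 genes, with 3 of them 2-fold or more higher, 1 lower and 3 within. Acpp, an acid phosphatase that can act on AMP, had 77 counts with IL-33 and 11 with PBS, a ratio of 2.70 (1.43 to 5.63). Entpd5, a relative of CD39 in the endoplasmic reticulum, had a ratio of 1.59 (1.12 to 2.29). Named after their values were seen, Enpp1, which splits ATP to AMP and pyrophosphate, had 73 counts against 2, and its ratio was 14.1 (3.76 to 118). The intracellular Entpd4 had 56 counts against 0, a ratio of at least 5.66 by its counting interval, and Entpd6 had 8 against 9, a ratio of 0.343 (0.115 to 1). These 3 genes had means under 10 CPM. Cd38, which consumes NAD at the surface, stood at 38.7 and 21.6 CPM, with a ratio of 1.79 (1.23 to 2.68). Art2b, whose product uses NAD to gate P2X7 on mouse T cells, had 0 counts in both libraries, as did Art2a-ps.

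Among the 8 listed genes with a P2Y receptor symbol, P2ry10, a receptor gene of lymphocytes, was the 1 that reached 5 CPM. The genes were grouped by symbol, and what each receptor binds was not examined. P2ry10 was at 480 CPM with IL-33 and 558 CPM with PBS, a ratio of 0.860 (0.794 to 0.933). P2ry14 had 13 counts against 0 and P2ry4 1 against 0, while P2ry1, P2ry2, P2ry6, P2ry12 and P2ry13 had 0 counts in both.

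Of the other nucleoside transporters, Slc28a2, a concentrative carrier of purine nucleosides, stood at 78.4 and 125 CPM, with a ratio of 0.630 (0.525 to 0.756). It thus stood lower with IL-33, as Slc29a1 did. Slc29a3, the lysosomal relative of ENT1, had 42 counts against 9 (ratio 1.80, 0.863 to 4.2), and Slc29a2 had 16 against 0.

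Purine salvage genes had a median of 0.37 over 14 genes, with 11 within 2-fold. Hprt, the enzyme that recovers hypoxanthine and guanine, stood at 274 and 250 CPM, with a ratio of 1.10 (0.978 to 1.23). Pnp, which splits inosine and guanosine and so acts just after adenosine deaminase, was at 141 CPM with IL-33 and 73.7 CPM with PBS, a ratio of 1.91 (1.56 to 2.35). Dck, deoxycytidine kinase, was lower at 0.607 (0.523 to 0.705). Thinly counted genes were past 2-fold and were named after their values were seen. By the low end of their counting intervals, Adal (34 counts against 0, at least 3.37-fold) and Pnp2 (24 against 0, at least 2.32-fold) were higher. Ampd2, an AMP deaminase gene, was lower with 1 count against 26, a ratio of 0.0148 (0.000362 to 0.0903). Pnp and Pnp2 are close copies, and how the counting split their reads is not given in the sources used here.

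Genes of cyclic AMP signalling had a median of -0.64 over 12 genes, with 1 higher, 2 lower and 9 within 2-fold. Gnas, the stimulatory G protein that A2A couples to, was at 623 CPM with IL-33 and 1056 CPM with PBS, a ratio of 0.590 (0.555 to 0.628). Prkar1a, a regulatory subunit of protein kinase A, was level at 830 and 843 CPM, and Crem, a transcription factor of the pathway, was at 766 and 663 CPM. Over all genes compared, 15.5% were 2-fold or more higher and 16.3% were 2-fold or more lower. The products of phosphodiesterase genes end the signal, and 5 such genes were compared. Pde4a, with 20 counts against 0, did not reach 5 CPM. The best counted of the 5 were Pde4b at 257 and 408 CPM (ratio 0.631, 0.571 to 0.697) and Pde4d at 97.0 and 161 CPM (ratio 0.604, 0.514 to 0.710), both within 2-fold. Past 2-fold, Pde7a (20 counts against 47, ratio 0.164, 0.0921 to 0.282) and Pde3b (20 against 35, ratio 0.220, 0.121 to 0.392) were lower, and Pde8a (78 against 12, ratio 2.51, 1.36 to 5.06) was higher.

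Genes that act with or after P2X7 in the inflammasome and in surface shedding had a median of 0.02 over 8 genes, with 1 higher, 0 lower and 7 within 2-fold. Gsdmd, the pore-forming gasdermin, was the gene past 2-fold, with 107 counts against 11 and a ratio of 3.75 (2.01 to 7.74). Pycard, the inflammasome adaptor, had 1031 counts against 199, with a ratio of 2.00 (1.72 to 2.34) and a log2 fold of 0.99 that lies just inside the mark. Nek7, an NLRP3 partner, was lower at 0.608 (0.537 to 0.688), and Adam10, a shedding protease, was at 1.09 (0.943 to 1.25). Nlrp3 and Il1b themselves had 0 counts in both libraries.

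Relatives of Dpp4 had a median of -0.24 over 4 genes, with 1 higher, 0 lower and 3 within 2-fold. Dpp8 had a ratio of 0.778 (0.622 to 0.976), Prep 0.703 (0.456 to 1.10) and Dpp7 0.914 (0.575 to 1.49). Dpp9, named after its values were seen, was past 2-fold with 50 counts against 8, a ratio of 2.41 (1.13 to 5.89). Fap, a fibroblast relative of Dpp4, had 0 counts in both libraries.

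**Figure D4:**
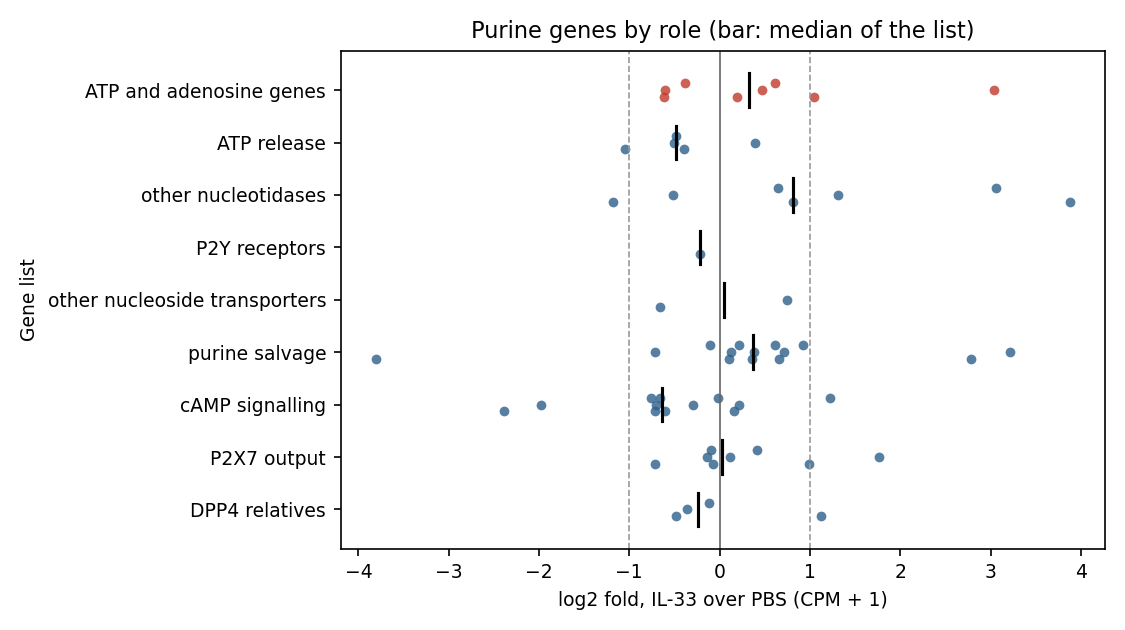
log2 fold of IL-33 over PBS (CPM plus 1) of each gene that reached 5 CPM in a library, by role; each point is 1 gene, black bars are list medians, and dashed lines mark 2-fold. The medians run from -0.64 for cyclic AMP signalling to 0.81 for other nucleotidases, with P2rx7 at 3.04 as the highest of the 8 genes in red.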

How the data were processed

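RNA of 2 Treg libraries was sequenced as paired reads of 25 bp after amplification of poly(A) cDNA, per the labels' protocols, which name no molecular identifiers. The authors deposited raw counts, whole numbers per gene symbol. TopHat2 2.0.10, Cufflinks 2.2.1 and mm10 are named in the submitters' processing notes; which program counted the reads, on which annotation and whether by strand, is not given in the sources used here. Each column matched 1 library by name.

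CPM was computed from the counts by the library totals. A single count equals 0.245 CPM (IL-33) and 0.635 CPM (PBS). Ratios carry exact conditional (Clopper-Pearson) intervals, levels exact Poisson intervals, and ratios of ratios exact conditional odds ratio intervals, all at 95% and for counting error only. Genes with 5 CPM in a library were compared, and a call is a log2 fold of CPM plus 1 at 2-fold or more. The code was tested on simulated data. The level of 1 marker gene, and so the sum of its list, is not reported here. The 9 genes, the lists and the rules were chosen with earlier results of these data known. All 9 genes are named, and of each list the 3 with the highest mean CPM and those past 2-fold with a mean of 10 CPM. No genes of like pattern were sought, since 2 libraries give no pattern. Positions and transcript lengths are from GENCODE M21 (GRCm38), in which all 9 matched, and promoter windows from RefSeq, which held 8 (not Adora2a). Python 3.11.15, scipy 1.17.1, pandas 2.3.3 and, for TMM factors, edgeR 4.0.16 in R 4.3.3 were used.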

Additional observations from a re-analysis of the deposited data

How the results depend on the processing

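With 1 library per group, no library could be left out. No paired analysis was possible because each group has 1 library. Of 24 recalculations of the leading results (the Adk and P2rx7 ratios and the counts of genes past 2-fold), 22 stayed in the range of the main value (for counts, within 1.5 times). A threshold of 3-fold left 1 gene higher (P2rx7), and a threshold of 1.5-fold made 3 genes higher (P2rx4 joined) and 2 lower (Ada and Slc29a1). TMM scaling adds 0.12 to the log2 of every CPM ratio taken without the added 1. It turned no direction among the 8 genes: the Adk ratio became 2.28 and that of P2rx7 10.5. Every other scaling tried also raised all ratios by the same factor, and the shifts ran from 0.059 to 0.12 in log2. Shifts that small could not leave the counting intervals of Adk or P2rx7, so the scalings are a weak check of these ratios. Of the other 52 recalculations, 40 stayed and 12 moved, each of the 12 a place in the order of levels when the median transcript length replaced the longest. Depth limits P2rx7 in the PBS library (8 counts), Ada in both, and Adora2a, which cannot be compared.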

Other observations

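With IL-33 and with PBS again name the libraries. The neighbourhood of P2rx7 and P2rx4 was looked at after their values were seen. Of the 8 protein-coding genes of the table within 200 kb of P2rx7, Camkk2, a calcium-dependent kinase gene on the opposite strand that ends 1.43 kb from P2rx4, was the 1 past 2-fold. Over all genes compared, 15.5% were 2-fold or more higher, and beside that share 1 of 8 does not set this stretch apart. Camkk2 had 74 counts with IL-33 and 3 with PBS, a ratio of 9.51 (3.13 to 47.2) that rests on those 3 counts. Between P2rx7 and Camkk2, P2rx4 stood at 1.55, while Atp2a2 (0.916), Anapc5 (0.882), Rnf34 (0.766) and Kdm2b (0.560) in the same stretch of chromosome 5 were below 1. Of these 4, Kdm2b was the 1 whose interval (0.473 to 0.663) leaves out 1. Ift81 (35 counts against 6, ratio 2.25, 0.936 to 6.54) and Anapc7 (45 against 12, ratio 1.45, 0.752 to 3), both above 1, also had intervals that hold 1. On the log2 fold of CPM plus 1 used for the calls, Ift81 was at 0.99, just inside the 2-fold mark.

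Ap3m1, an adaptor subunit gene whose annotated start lies 66 bp from that of Adk on the opposite strand, had 151 counts with IL-33 and 74 with PBS. Its ratio of 0.787 (0.592 to 1.05) thus did not follow the 2.10 of Adk. Vcl, 18.9 kb away, had 0 counts against 41.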
